A study of Mus musculus with 6 samples.

Results

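The genes examined here encode the enzymes of the tricarboxylic acid (TCA) cycle and the proteins that take up, activate and oxidize fatty acids. They were chosen by gene symbol, from the names of the pathways' genes and not from a measured value, though with earlier results of these data known. They comprise 36 of the 54532 genes in the deposited count table: 14 of the TCA cycle and 22 of fatty acid uptake and oxidation. RNA was sequenced from individual mouse hearts at E9.5, with 3 *Smyd1-KO* and 3 WT embryos. *Smyd1* encodes a histone methyltransferase of striated muscle, and the *Smyd1-KO* is a conventional null, so the gene is lost in every cell of the embryo and not in cardiomyocytes alone. No treatment was given, and the *Smyd1-KO* and WT hearts came from embryos of either sex. The comparison asks which metabolic transcripts differ in the heart when SMYD1 is missing, and the 2 pathways are described apart.

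The TCA cycle runs in the mitochondrial matrix, where acetyl-CoA joins oxaloacetate to form citrate and a round of oxidations returns oxaloacetate and hands electrons to the respiratory chain. Fatty acids reach the same cycle by another route. They are freed from lipoproteins, carried across the plasma membrane, joined to CoA, passed into the matrix as carnitine esters and shortened by beta oxidation, which releases acetyl-CoA. The adult heart draws most of its energy from fatty acids, whereas the early embryonic heart relies largely on glycolysis.

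Levels are given as CPM, read counts scaled to a common library size with TMM factors, and differences as the log2 fold change of *Smyd1-KO* over WT from edgeR with its standard error (SE). A gene was called where the Benjamini-Hochberg adjusted *P* over 19372 tested genes was under 0.05 and the log2 fold change was at least 0.5 in either direction. All 36 genes passed the filter on low counts. By this rule 1 of the 36 was called lower, *Ogdh*, and 1 was called higher, *Cd36*, and 34 were not called. Over all tested genes 4.28% were called, 2.86% higher and 1.42% lower, so the share among the 36 genes lies near the background. In bulk hearts, fewer cells of a type and less RNA per cell cannot be told apart. The labels do not name litters or dissection days, and the 6 hearts are the replicates.

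*Smyd1* itself was at 101, 222 and 206 CPM in the *Smyd1-KO* hearts and at 414, 379 and 270 CPM in the WT hearts. All 3 *Smyd1-KO* hearts lay below all 3 of WT. Its log2 fold change was -1.01 (SE 0.30), not called by edgeR (adjusted *P* = 0.0973) but called lower by DESeq2 (adjusted *P* = 0.00534). Counts over a whole gene do not show whether the remaining RNA is the disrupted transcript. Total counts ran from 48627825 to 64217529 per heart. Markers were read for cell types that an embryonic heart can hold. None of the 12 cardiomyocyte, 10 endothelial and endocardial or 6 epicardial markers was called by edgeR. An unadjusted *P* under 0.05 was seen for 2, 4 and 2 of them, beside 25.1% of all tested genes. DESeq2, which called 9.29% of its genes, called *Nppa*, *Kdr*, *Wt1* and *Upk3b* higher and *Npr3* and *Nfatc1* lower. Of the 12 cardiomyocyte markers 8 had a log2 fold change below 0 and 4 above, with a median of -0.10. The summed level of the cardiomyocyte markers ran from 9664 to 20245 CPM in *Smyd1-KO* and from 12741 to 21497 CPM in WT. All 10 erythroid markers were lower in *Smyd1-KO* at an unadjusted *P* under 0.05 and the calls included *Alas2* and *Gata1*, both lower. Their summed level was 24.1 to 277 CPM in *Smyd1-KO* and 745 to 995 CPM in WT, and *Epb42* was at 0 in *Smyd1-KO* replicate 1. Of 6 macrophage markers, *Ptprc*, *Cx3cr1*, *Adgre1* and *Fcgr1* had 0 to 11 counts per heart and were not tested. *Csf1r* and *Cd68* were tested and not called. *Cd68* had lower values in *Smyd1-KO* without overlap (log2 fold change -0.62, adjusted *P* = 0.169 by edgeR), as had 31.3% of all tested genes in either direction. *Csf1r* had an estimate of the opposite sign, 0.48, with overlapping genotypes. The 4 tested of 6 endoderm and liver markers varied among hearts of both genotypes, with 0 called and a summed level of 0.46 to 63.5 CPM in *Smyd1-KO* and 0.84 to 32.4 CPM in WT. The part of these cell types in the differences below was not tested.

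To place the called genes, the 250 bases before a RefSeq start of each (GRCm38.p6) are shown, 5′ to 3′ on the gene's strand. *Ogdh* lies at chr11:6291633-6356642 on the plus strand in GENCODE and *Cd36* at chr5:17781690-17888801 on the minus strand. The *Ogdh* window is chr11:6291347-6291596, before the most upstream of its RefSeq starts. The *Cd36* window is chr5:17835897-17836146, and other *Cd36* transcripts in GENCODE start further upstream. Capitals mark ACGTG or GCGTG, the core letters of hypoxia response elements, or their reverse complements, and in *Ogdh* an ACGTG match stands directly before a GCGTG match without sharing a base with it.
Ogdh: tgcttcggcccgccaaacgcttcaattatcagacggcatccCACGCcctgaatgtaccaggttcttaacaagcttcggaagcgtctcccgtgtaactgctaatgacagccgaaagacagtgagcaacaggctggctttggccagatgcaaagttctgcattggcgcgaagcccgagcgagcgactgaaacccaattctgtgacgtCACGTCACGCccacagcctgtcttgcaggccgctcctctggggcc
Cd36: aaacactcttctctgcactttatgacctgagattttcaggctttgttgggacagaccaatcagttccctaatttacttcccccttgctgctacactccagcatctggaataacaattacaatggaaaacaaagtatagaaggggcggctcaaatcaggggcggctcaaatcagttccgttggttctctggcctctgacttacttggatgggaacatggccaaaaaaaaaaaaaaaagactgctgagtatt
The *Ogdh* window held 1 ACGTG and 2 GCGTG matches, and the *Cd36* window held neither. RefSeq windows were found for 31 of the 36 genes. ACGTG stood in 3 of 13 TCA cycle genes (*Idh3g*, *Mdh1* and *Ogdh*) and in 1 of 18 fatty acid genes (*Acadvl*), against 18.5% of 27025 genes, counting a gene once if any of its windows held a match. GCGTG stood in 6 of 13 and 9 of 18, against 30.9% of all. AAGGTCA, the core letters of an estrogen-related receptor element, stood in 0 of 13 and in 1 of 18 (*Acadm*), against 4.7% of all. The direct repeat of the PPAR kind was found in none of the 31 genes and in 0.0407% of all. These matches describe letters only.

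In the TCA cycle, the expression of 13 of 14 genes was not called, and 13 had a log2 fold change within 0.5 of 0. The log2 fold changes ran from -0.55 to 0.26, 9 below and 5 above 0, with a median of -0.09 beside 0.00 for all tested genes. The 95% interval lay wholly within 0.5 of 0 for 9 of the 14. An unadjusted *P* under 0.05 was seen for 3 of the 14, *Ogdh*, *Dlst* and *Suclg2*, beside 25.1% of all tested genes, and the same 3 had no overlap between genotypes, beside 31.3% of all.

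**Figure D1:**
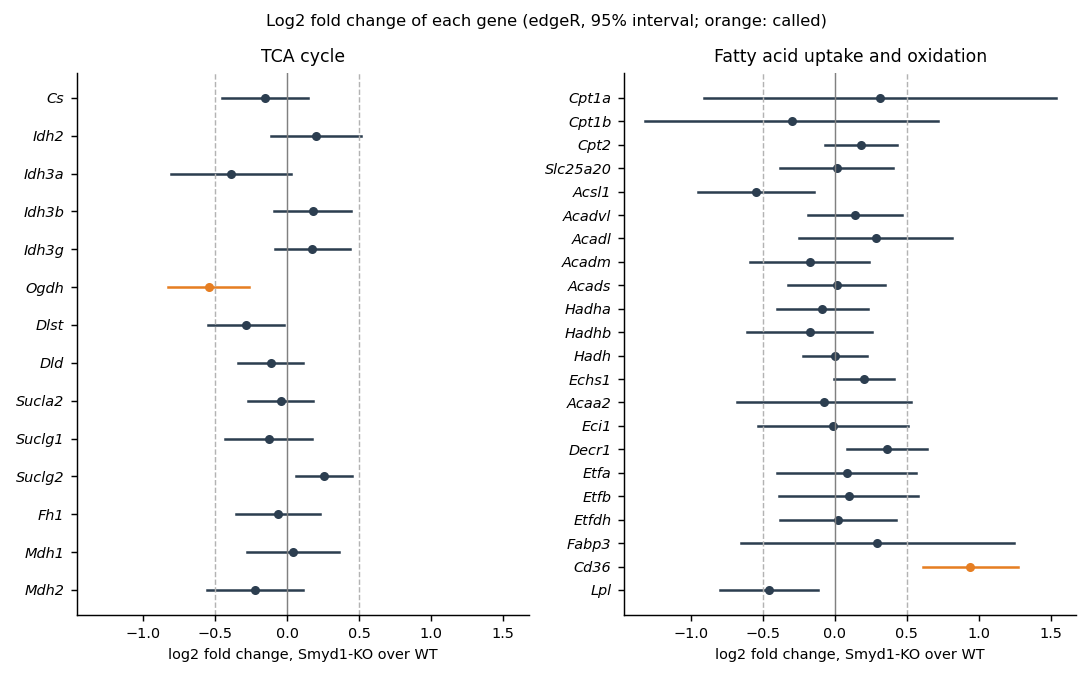
Log2 fold change of *Smyd1-KO* over WT from edgeR for each gene (point) with its derived 95% interval (bar), n = 3 hearts per genotype. Dashed lines mark 0.5 in either direction and orange marks called genes. *Ogdh* at -0.55 and *Cd36* at 0.94 are the called genes, and the widest intervals belong to *Cpt1a* and *Cpt1b*.

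The oxoglutarate dehydrogenase complex converts 2-oxoglutarate to succinyl-CoA and is a control point of the cycle. *Ogdh*, its catalytic E1 subunit, was at 167, 208 and 197 CPM in *Smyd1-KO* and at 287, 302 and 245 CPM in WT. Every *Smyd1-KO* heart was below every WT heart, and expression fell 1.46-fold (log2 fold change -0.55, SE 0.12, adjusted *P* = 0.0468 by edgeR). The adjusted *P* lay just under the threshold, and leaving out any 1 of the 6 hearts ended the call, with adjusted *P* from 0.0567 to 0.181 and log2 fold changes from -0.63 to -0.46. *Dlst*, the E2 succinyltransferase, was at 165, 203 and 193 CPM in *Smyd1-KO* and at 248, 230 and 205 CPM in WT. The genotypes did not overlap, but the difference of -0.29 (SE 0.11) did not pass the test (adjusted *P* = 0.169). *Dld*, the E3 dihydrolipoamide dehydrogenase that this complex shares with pyruvate dehydrogenase, had a log2 fold change of -0.12 (SE 0.10) with overlapping genotypes. All 3 subunits thus had negative estimates, of which that of *Ogdh* was called.

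Citrate synthase (*Cs*), which admits acetyl-CoA to the cycle, was at 311, 400 and 371 CPM in *Smyd1-KO* and at 443, 404 and 357 CPM in WT. The genotypes overlapped, and the log2 fold change was -0.15 with a 95% interval of -0.45 to 0.14. *Idh3a*, the catalytic subunit of the NAD-dependent isocitrate dehydrogenase, was at 115, 169 and 151 CPM in *Smyd1-KO* and at 223, 193 and 154 CPM in WT. *Smyd1-KO* replicate 1 was the lowest of all hearts, and the difference of -0.39 (SE 0.18) did not pass the test (adjusted *P* = 0.226). The other subunits of that enzyme, *Idh3b* and *Idh3g*, had estimates of the opposite sign, each 0.18 and not called. *Idh2*, the mitochondrial NADP-dependent enzyme, had a log2 fold change of 0.20 (95% interval -0.11 to 0.51).

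Succinyl-CoA synthetase is built from the common subunit SUCLG1 and either SUCLG2, which forms GTP, or SUCLA2, which forms ATP. *Suclg2* was at 115, 114 and 101 CPM in *Smyd1-KO* and at 97.0, 91.2 and 87.9 CPM in WT. The genotypes did not overlap, and the difference of 0.26 (SE 0.08) did not pass the test over all genes (adjusted *P* = 0.113). *Sucla2* and *Suclg1* had log2 fold changes of -0.05 and -0.13. Fumarase (*Fh1*) and the cytosolic malate dehydrogenase (*Mdh1*) had log2 fold changes of -0.06 and 0.04. *Mdh2*, the mitochondrial malate dehydrogenase that closes the cycle, was at 229, 290 and 276 CPM in *Smyd1-KO* and at 362, 302 and 264 CPM in WT. These ranges overlapped, with a log2 fold change of -0.22 (95% interval -0.56 to 0.11).

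In fatty acid uptake and oxidation, 21 of 22 genes were not called and 20 had a log2 fold change within 0.5 of 0. The log2 fold changes ran from -0.54 to 0.94, 14 above and 8 below 0, with a median of 0.02. The 95% interval lay within 0.5 of 0 for 8 of the 22. An unadjusted *P* under 0.05 was seen for 4 of the 22, *Cd36* and *Decr1* with higher and *Lpl* and *Acsl1* with lower values in *Smyd1-KO*. The 4 are 18.2% of the genes, beside 25.1% of all tested genes. These 4 and *Echs1*, 22.7%, had no overlap between genotypes, beside 31.3% of all.

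The largest differences lay in the genes of supply and activation. *Cd36*, the plasma membrane carrier of long-chain fatty acids, was at 24.2, 31.7 and 23.8 CPM in *Smyd1-KO* and at 14.6, 13.97 and 12.9 CPM in WT. Every *Smyd1-KO* heart was above every WT heart, and expression rose 1.92-fold (log2 fold change 0.94, SE 0.14, adjusted *P* = 0.0159 by edgeR). The call was lost without *Smyd1-KO* replicate 2, WT replicate 2 or WT replicate 3, where the adjusted *P* reached 0.0936 at most, and the log2 fold change stayed between 0.80 and 1.02 in the 6 fits that each left out 1 heart. CD36 is also made by endothelial cells, and in these hearts the endothelial markers had a summed level of 726, 854 and 1100 CPM in *Smyd1-KO* and 839, 887 and 720 CPM in WT. Of those 10 markers *Kdr* (log2 fold change 0.70, adjusted *P* = 0.0569) and *Pecam1* (0.45) were higher, and *Npr3* (-0.52) and *Nfatc1* (-0.83) lower, at an unadjusted *P* under 0.05, and their part in the rise of *Cd36* was not tested.

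*Lpl*, the lipase that frees fatty acids from lipoproteins, was at 49.2, 61.8 and 68.4 CPM in *Smyd1-KO* and at 90.1, 86.1 and 69.8 CPM in WT. The genotypes were apart by a narrow margin, and the difference of -0.46 (SE 0.15) did not pass the test (adjusted *P* = 0.113). *Acsl1*, the acyl-CoA synthetase that commits long-chain fatty acids to oxidation, was at 20.96, 27.7 and 32.2 CPM in *Smyd1-KO* and at 42.6, 41.6 and 33.7 CPM in WT. Its log2 fold change of -0.54 (SE 0.17) was not called by edgeR (adjusted *P* = 0.109) but was called lower by DESeq2 (adjusted *P* = 0.0389), which called 9.29% of its genes. *Fabp3*, the heart-type fatty acid binding protein, was at 22.9, 57.7 and 54.6 CPM in *Smyd1-KO* and at 51.8, 36.6 and 21.9 CPM in WT. Hearts of either genotype spanned more than the difference between the genotype means, and the log2 fold change of 0.30 had a 95% interval of -0.65 to 1.24.

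**Figure D2:**
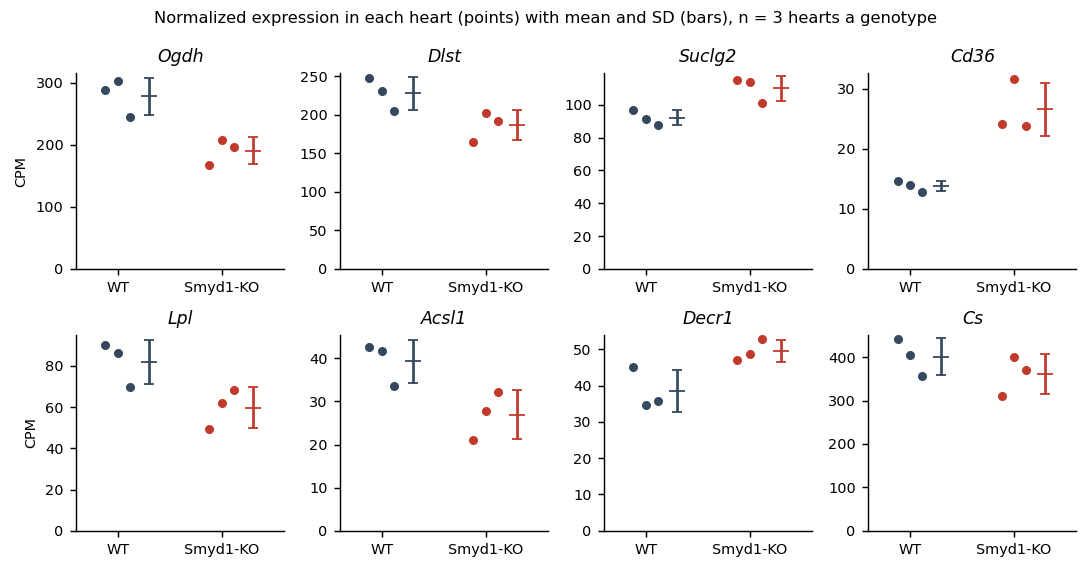
Normalized expression (CPM, linear axis from 0) of 8 genes in each heart (points) with the mean and SD (bars), n = 3 hearts per genotype. *Ogdh*, *Dlst*, *Lpl* and *Acsl1* have all *Smyd1-KO* hearts below all WT hearts, *Suclg2*, *Cd36* and *Decr1* the reverse, and *Cs* overlaps.

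The carnitine shuttle carries acyl groups into the matrix, and CPT1 is its rate-limiting enzyme. The liver-type gene *Cpt1a* was at 0.82, 3.04 and 3.36 CPM in *Smyd1-KO* and at 2.57, 2.08 and 1.19 CPM in WT, from 40 to 192 counts. The muscle-type gene *Cpt1b* was at 0.95, 2.11 and 2.03 CPM in *Smyd1-KO* and at 2.17, 3.01 and 1.11 CPM in WT, from 46 to 191 counts. Both overlapped between genotypes, with 95% intervals of -0.91 to 1.54 and of -1.32 to 0.72, so a log2 fold change of 0.5 in either direction lay within both intervals. Of the exonic length of *Cpt1b*, 81.4% is shared on the same strand with the gene model *Gm44502*, which had 0 counts in every heart, and how shared reads were counted is not given. *Cpt2* and the carnitine-acylcarnitine translocase *Slc25a20* had log2 fold changes of 0.18 and 0.02.

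Of the 14 genes of mitochondrial beta oxidation and its electron transfer, 0 were called by edgeR and 0 by DESeq2. Over all tested genes edgeR called 4.28% and DESeq2 9.29%. The median log2 fold change of the 14 was 0.02, and 1 (7.14%) had an unadjusted *P* under 0.05, beside 25.1% of all tested genes. *Decr1*, the dienoyl-CoA reductase needed for polyunsaturated fatty acids, was at 46.9, 48.8 and 52.9 CPM in *Smyd1-KO* and at 45.0, 34.5 and 35.8 CPM in WT. The genotypes did not overlap, and the difference of 0.37 (SE 0.12) did not pass the test (adjusted *P* = 0.115). Among the acyl-CoA dehydrogenases, which open each round of oxidation, *Acadm* was at 45.4, 68.8 and 65.7 CPM in *Smyd1-KO* and at 76.4, 69.4 and 57.1 CPM in WT. Its log2 fold change was -0.17 (95% interval -0.59 to 0.24), and those of *Acadvl*, *Acadl* and *Acads* were 0.14, 0.28 and 0.01. *Acadvl* shares 42.9% of its exonic length with *Dvl2* on the opposite strand, a gene with a log2 fold change of 0.39, and the strand setting of the counts is not given.

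The trifunctional protein carries out the later steps for long chains. Its alpha subunit *Hadha* was at 135, 179 and 181 CPM in *Smyd1-KO* and at 191, 178 and 157 CPM in WT, with a log2 fold change of -0.08 (95% interval -0.40 to 0.23). The gene of the beta subunit, *Hadhb*, is arranged head to head with *Hadha* on chromosome 5 and had a log2 fold change of -0.17. The short-chain enzymes *Echs1* and *Hadh*, the thiolase *Acaa2* and the enoyl-CoA isomerase *Eci1* had log2 fold changes of 0.20, 0.00, -0.08 and -0.01. *Echs1* had no overlap between genotypes and an adjusted *P* of 0.208. The genes of the electron transfer flavoprotein, *Etfa*, *Etfb* and *Etfdh*, had log2 fold changes of 0.08, 0.10 and 0.02, and *Etfb* shares 53.0% of its exonic length with *Gm45233*, which had 1 to 12 counts per heart.

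Levels were compared between genes per kilobase of exonic length. That length joins the exons of all annotated transcripts of a gene, used in the heart or not, so the order depends on the annotation. In WT hearts *Idh2* was highest at 127 CPM per kb, followed by *Mdh1* at 88.0, *Mdh2* at 86.8 and *Cs* at 69.4 CPM per kb. Among the 36 genes the lowest levels were those of *Cpt1b*, 0.621, and *Cpt1a*, 0.254 CPM per kb, below *Acsl1* at 3.75 and *Cd36* at 3.85 CPM per kb. *Cpt1b* shares 81.4% and *Etfb* 53.0% of that length with another gene model on the same strand. How shared reads were counted is not given, so the levels and places of *Cpt1b* and *Etfb* in the order may be too low.

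**Figure D3:**
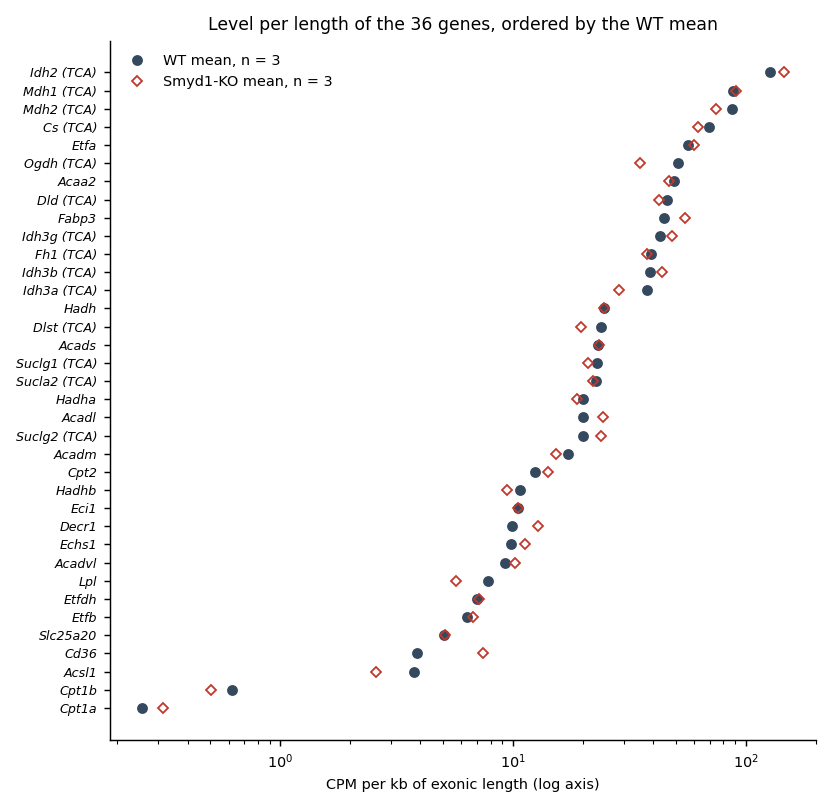
Mean level per length (CPM per kb of exon, log axis) of the 36 genes in WT (filled) and *Smyd1-KO* (open) hearts, n = 3 each, in the order of the WT mean. Most pairs lie close together over a range from 0.254 for *Cpt1a* to 127 for *Idh2*.

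Within-heart ratios of related enzymes were compared with a two-sided exact permutation test, whose smallest possible *P* is 0.1 with 3 hearts against 3, so no ratio could pass 0.05. The log2 ratio of *Mdh1* over *Mdh2* per kb was 0.32, 0.28 and 0.25 in *Smyd1-KO* and 0.04, -0.07 and 0.09 in WT hearts, without overlap (difference 0.27, exact *P* = 0.1, 0.2 adjusted over 4 ratios). *Suclg2* over *Sucla2* also separated the genotypes, at 0.23, 0.12 and -0.03 in *Smyd1-KO* and -0.30, -0.13 and -0.14 in WT hearts (difference 0.30, exact *P* = 0.1, 0.2 adjusted). *Cpt1a* over *Cpt1b* and *Acadl* over *Acadvl* overlapped between genotypes, with differences of 0.41 and 0.13 (exact *P* = 0.4 for each).

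Across both pathways, much of the variation lay between hearts of 1 genotype. *Smyd1-KO* replicate 1 was the lowest *Smyd1-KO* heart for 13 of 14 TCA cycle genes and 20 of 22 fatty acid genes, and WT replicate 3 was the lowest WT heart for 14 and 19. Over all tested genes these shares were 39.7% and 34.8%. Of the 10 endothelial and endocardial markers these 2 hearts were lowest for 8 and 8, with medians of -0.22 and -0.16 against the WT mean (log2). Of the 6 epicardial markers they were lowest for 5 and 3, and of the 10 erythroid markers for 10 and 0. The same hearts were lowest for 12 and 11 of the 12 cardiomyocyte markers, whose mean log2 CPM was 9.03 in *Smyd1-KO* replicate 1 against 10.17 and 10.16 in the other *Smyd1-KO* hearts, and 9.34 in WT replicate 3 against 10.08 and 9.96 in the other WT hearts. The genotype means of that score were 9.78 ± 0.66 and 9.79 ± 0.40 (SD, n = 3 each). The score averages markers with log2 fold changes from -0.71 to 1.44, 8 below and 4 above 0. Its close means therefore do not show equal shares of cardiomyocytes.

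**Figure D4:**
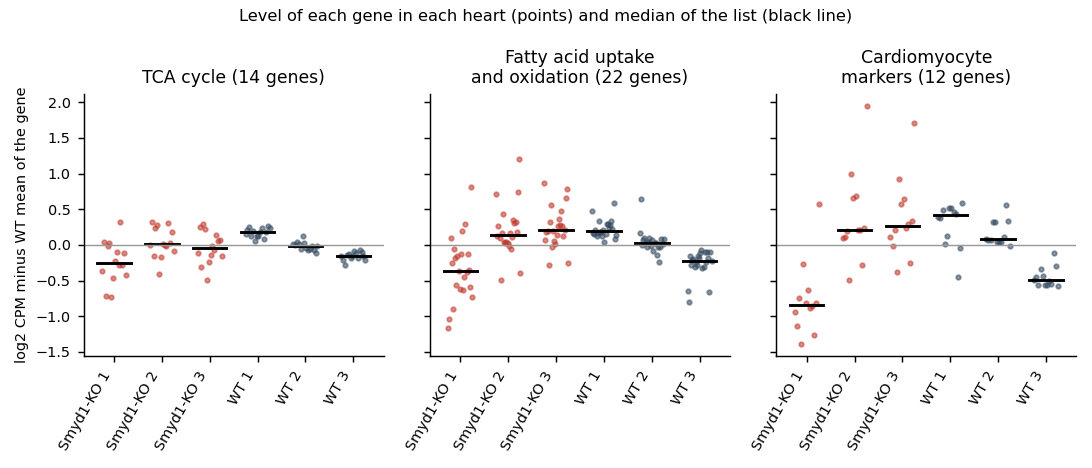
Log2 CPM of each gene (points) in each heart minus the mean of the 3 WT hearts, with the median of each list (black line), for TCA cycle genes, fatty acid genes and cardiomyocyte markers. In all 3 lists the lowest median is that of *Smyd1-KO* replicate 1 (-0.25, -0.36 and -0.84) and the lowest WT median is that of WT replicate 3 (-0.15, -0.22 and -0.50).

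With that cardiomyocyte marker score as a covariate, an alternative chosen after seeing these values, edgeR gave an unadjusted *P* under 0.05 for 7 of 14 TCA cycle genes and 8 of 22 fatty acid genes, beside 32.4% of all tested genes. *Ogdh* and *Cd36* stayed called and *Acsl1* was called lower (adjusted *P* = 0.0062, 0.0063 and 0.0102), beside 8.45% of all tested genes. The adjusted *P* of *Idh3a* (0.0248), *Dlst* (0.0328) and *Lpl* (0.0082) fell under 0.05 with log2 fold changes under the limit of 0.5. The log2 fold changes moved by at most 0.01 in the TCA cycle and 0.16 in the fatty acid genes. Without *Smyd1-KO* replicate 1, where 6.28% of genes were called, *Cd36* remained called and *Ogdh* did not, and the medians of the TCA cycle and fatty acid genes were -0.03 and 0.18. Over the 6 fits that each left out 1 heart these medians ran from -0.15 to 0.02 and from -0.07 to 0.18, so neither kept its sign. The TCA cycle median was above 0 without WT replicate 1, and that of the fatty acid genes was below 0 without *Smyd1-KO* replicate 2, *Smyd1-KO* replicate 3 or WT replicate 3.

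Genes that feed the TCA cycle or complete it were read from the same fit. Of 22, 2 were called higher and 1 lower, 5 and 2 had an unadjusted *P* under 0.05 in those directions (31.8%, beside 25.1% of all tested genes, of which 4.28% were called), and the median log2 fold change was 0.02. *Pcx*, pyruvate carboxylase, which refills oxaloacetate, was at 72.6, 84.7 and 85.7 CPM in *Smyd1-KO* and 38.9, 43.2 and 39.4 CPM in WT and rose, with a log2 fold change of 1.0 (95% interval 0.78 to 1.22, adjusted *P* = 0.00366 by edgeR). *Pck2*, the mitochondrial phosphoenolpyruvate carboxykinase, rose 2.38-fold (adjusted *P* = 0.0214), a call kept in 1 of the 6 fits that left out a heart. *Slc25a10*, the dicarboxylate carrier, fell 1.57-fold (adjusted *P* = 0.0186), kept in 2 of 6. *Pcx* was called in all 6.

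Of 30 other genes of fatty acid metabolism, 1 was called higher and 0 lower by edgeR, with 4 and 4 at an unadjusted *P* under 0.05 (26.7%, beside 25.1% of all) and a median log2 fold change of 0.15. *Acadsb*, the dehydrogenase of short branched-chain acyl-CoA in isoleucine breakdown, was at 47.1, 45.8 and 48.2 CPM in *Smyd1-KO* and 30.9, 27.9 and 30.7 CPM in WT. It rose 1.58-fold (adjusted *P* = 0.00899 by edgeR) and kept the call in 5 of 6 fits that left out a heart. Of 18 genes of lipid droplets, lipolysis and lipoprotein uptake, 2 were called higher and 0 lower by edgeR, with 6 and 1 at an unadjusted *P* under 0.05 (38.9%, beside the same 25.1%) and a median of 0.10. Of all tested genes 4.28% were called. *Vldlr*, the very low density lipoprotein receptor, was at 91.3, 128 and 143 CPM in *Smyd1-KO* and 20.2, 21.01 and 21.6 CPM in WT. It rose 5.76-fold (log2 fold change 2.53, SE 0.17, adjusted *P* = 0.000869) and kept the call in all 6 fits. *Hilpda*, a lipid droplet protein that inhibits lipolysis, rose 1.98-fold (adjusted *P* = 0.0155), kept in 2 of 6. DESeq2 also called *G0s2*, an inhibitor of lipolysis, and *Dgat2*, which makes triglyceride, higher (adjusted *P* = 0.0482 and 0.0214).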

How the data were processed

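Hearts of 3 *Smyd1-KO* and 3 WT embryos were grouped by the genotype in the labels. The authors selected poly A RNA, sequenced paired-end reads, aligned them to mm10 with STAR and deposited raw counts per gene, whole numbers with no normalization; the counting tool, annotation release and strand setting are not given in the sources used here. A deposited table of the same counts divided by size factors was not used, and 0 columns were left without a sample. Total counts were 48627825 to 64217529 per heart. Counts were tested with edgeR 4.0.16 in R 4.3.3 (filterByExpr, TMM, quasi-likelihood test, Benjamini-Hochberg adjustment over 19372 genes; biological coefficient of variation 22.5%), after the script was tested on simulated data. The call threshold was 0.05 for the adjusted *P*, with a log2 fold change of 0.5 or more in size. CPM carry the TMM factors, and log2 CPM a prior count of 2. Exonic lengths and positions are from GENCODE M21 (GRCm38), in which 54409 of the 54532 identifiers were found.

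Values in every heart are given for called genes, for those of the 36 with an unadjusted *P* under 0.05 and for a fixed list of rate-limiting and representative enzymes; of each other list the called genes are named, except where a result is not reported here. *Idh2*, *Idh3b*, *Echs1* and the genes of the ketone body list, with *Me2*, *Lmf1*, *G0s2*, *Dgat2* and the markers named beyond those called by edgeR, were added to the named genes with their values in view. The genes and lists were chosen with earlier results of these data known. Alternatives were DESeq2 1.42.0, RLE and upper-quartile factors, normalization without haemoglobin genes and those of the mitochondrial genome, other filters, no fold limit, the replicate number as a block, each heart left out in turn and, chosen after seeing the data, the mean log2 CPM of 12 cardiomyocyte markers as a covariate. Tables and plots were made in Python 3.11.15 with pandas 2.3.3, scipy 1.17.1 and matplotlib 3.10.9.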

Additional observations from a re-analysis of the deposited data

How the results depend on the processing

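Over all genes 830 were called, 1749 by DESeq2, 1637 with the cardiomyocyte marker covariate, 59 with the replicate block and 97 to 1256 when 1 heart was left out. In the TCA cycle the number called lower was 0 with the block and 0 in each fit without 1 heart. In fatty acid oxidation the number called higher was 0 with the block and 0 to 2 without 1 heart, 2 where *Decr1* joined *Cd36* without WT replicate 1, and the number called lower was 1 (*Acsl1*) with DESeq2 and with the covariate. No gene of the 36 changed sign when all hearts were kept. When 1 heart was left out, 15 of them did, with log2 fold changes of *Acaa2* -0.34 to 0.1478, *Acads* -0.1106 to 0.1154, *Cpt1b* -0.6012 to 0.0552, *Eci1* -0.1643 to 0.1769, *Etfa* -0.0333 to 0.2751, *Etfb* -0.0198 to 0.2943, *Etfdh* -0.0691 to 0.1852, *Fh1* -0.1242 to 0.0383, *Hadh* -0.0648 to 0.0638, *Hadha* -0.1557 to 0.0411, *Hadhb* -0.2752 to 0.0112, *Mdh1* -0.0311 to 0.1897, *Slc25a20* -0.1084 to 0.1399, *Sucla2* -0.1008 to 0.0607, *Suclg1* -0.2137 to 0.0092. RLE or upper-quartile factors, removal of haemoglobin and mitochondrial-genome genes, other filters and no limit on the fold change left *Ogdh* and *Cd36* as the called genes.

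Deviations from the genotype mean had correlations of -0.22 to -0.05 between hearts sharing a replicate number. Other pairs had correlations of -0.16 to 0.29, with a mean of 0.07. The ranges overlap and come from 3 hearts per genotype, so they cannot decide whether the number marks a pairing. Under the replicate block the adjusted *P* was 0.148 for *Ogdh* and 0.095 for *Cd36*. With 3 hearts per genotype the spread between hearts limits every comparison.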

Other observations

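Ketone bodies are made from fatty acid derived acetyl-CoA in liver and used by the heart. Of 6 genes for their use and synthesis, 0 were called by edgeR, beside 4.28% of all tested genes. At an unadjusted *P* under 0.05 were 3 (50.0%, beside 25.1% of all tested genes), each with higher values in *Smyd1-KO*. *Oxct1*, which activates acetoacetate and commits ketone bodies to oxidation, was at 58.5, 114 and 99.5 CPM in *Smyd1-KO* and at 75.4, 50.8 and 44.0 CPM in WT hearts (log2 fold change 0.68, adjusted *P* = 0.191). *Acat1*, the thiolase that follows it, had a log2 fold change of 0.63 (adjusted *P* = 0.133 by edgeR, and 0.0436 by DESeq2, which called it higher). For *Oxct1* and *Acat1*, *Smyd1-KO* replicate 1 lay below WT replicate 1, so the genotypes overlapped.

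*Me2*, the mitochondrial malic enzyme, and *Lmf1*, which matures lipoprotein lipase, each had a log2 fold change of 0.41 with adjusted *P* of 0.0221 and 0.0373, under the limit on the fold change.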
